A study of Homo sapiens with 4 samples.

Results

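The core of the Wnt and β-catenin pathway was followed across the knockdown of KIAA1429 in HCCLM3 cells, a human hepatoma line. The members were 10 genes chosen by name: the receptors LRP5 and LRP6, the signal transducer DVL1, the destruction complex genes AXIN1, APC, CSNK1A1, GSK3A and GSK3B, the effector CTNNB1 and its nuclear partner TCF7L2. All 10 had listed transcripts, and they made up 10 of the 13036 genes and 39 of the 38510 transcripts in the series. In their annotated types, 36 of the 39 transcripts were protein coding and 3 were processed transcripts.

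RNA was sequenced from HCCLM3 cells after lentiviral infection. The hairpin was a control in 2 samples (shCtrl) and targeted KIAA1429 in the other 2 (shKIAA1429), and the comparison asked which transcripts differed after the knockdown. All 4 samples therefore share the cell line and the lentiviral vector. The methods describe a single hairpin sequence per target, so effects of that sequence and of losing KIAA1429 cannot be told apart. The labels do not say whether replicates came from separate cultures, and p-values measure only the spread between these samples, which may be technical.

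In the resting pathway, a complex built on axin and APC holds β-catenin while casein kinase 1α and the GSK3 kinases phosphorylate it, which marks it for breakdown. A Wnt ligand that binds Frizzled and LRP5 or LRP6 recruits Dishevelled and draws axin to the membrane, β-catenin escapes the complex, and in the nucleus it works with TCF and LEF factors on target genes. Activating changes in CTNNB1 and inactivating changes in AXIN1 or APC are known in liver cancer. Much of this control acts on protein stability and phosphorylation, which RNA levels do not measure. KIAA1429, now named VIRMA, is a subunit of the enzyme complex for the RNA mark N6-methyladenosine (m6A), which is placed usually where the letters GGAC or close variants occur, and regulators of m6A can also affect splicing and 3′ end choice.

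The values are FPKM, fragments scaled to transcript length and to the total mapped, so levels may be compared between genes per length. A gene's level is the sum over its listed transcripts. Differences are on the log2(FPKM + 1) scale, shKIAA1429 minus shCtrl, with a standard error (SE). They come from limma fitted over all 11657 genes, or 24996 transcripts, with at least 1 FPKM in at least 2 samples, and adjusted p-values are by the Benjamini-Hochberg method over all of those. A feature was called when its adjusted p-value was under 0.05 and its log2 difference was beyond -1 or 1. Depth per library is unknown, because FPKM carries no counts.

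Across genes, log2(FPKM + 1) correlated at 0.972 between the shCtrl libraries and at 0.968 between the shKIAA1429 libraries, while 3 of the 4 correlations across groups fell between 0.970 and 0.9751 and the other was 0.961. The correlations within groups thus lay inside the range of those between groups. VIRMA itself was at 9.37 and 14.1 FPKM in the shCtrl libraries and at 6.90 and 8.52 in the shKIAA1429 libraries. Both knockdown values were below both controls, with a log2 difference of -0.53 (SE 0.24, limma adjusted p = 0.917) that the test did not call and that was -0.26 without shCtrl replicate 2. By exact permutation (two-sided) its p-value was 0.333, and 2 against 2 libraries cannot reach a lower one.

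Some coding stretches that differ between listed forms of these genes are shown first, since several results turn on which form was assigned the reads. Chosen listed forms were compared in 5 of the 10 genes. They differ by a stretch inside the coding part whose length is a multiple of 3, so that the forms stay in frame with each other. The other genes, TCF7L2 among them, were not searched for such stretches. The sequences below were read from GRCh37 on the minus strand, with the stretch in capitals and 10 neighbouring bases on each side in lower case. The lower-case bases are intronic except those after the LRP6 stretch and those before the DVL1 stretch, which belong to the same exon as the stretch. In LRP6 the stretch is 135 bases (45 residues) at the start of exon 18 of 23 (chr12:12284857-12284991), and it is present in LRP6-201 and absent from LRP6-206. In DVL1 it is 75 bases (25 residues) at the end of exon 11 of 15 (chr1:1274667-1274741), present in DVL1-201 and absent from DVL1-202. In AXIN1 it is the whole of exon 9 of 11, 108 bases (36 residues, chr16:341190-341297), present in AXIN1-201 and absent from AXIN1-202. In CSNK1A1 it is exon 5 of 11, 84 bases (28 residues, chr5:148897357-148897440), present in CSNK1A1-201, CSNK1A1-205 and CSNK1A1-207; this insert is known to carry a nuclear localisation signal. In GSK3B it is exon 9 of 12 of GSK3B-202, 39 bases (13 residues, chr3:119585437-119585475), the insert of the longer GSK3β form known for its enrichment in neurons.
LRP6: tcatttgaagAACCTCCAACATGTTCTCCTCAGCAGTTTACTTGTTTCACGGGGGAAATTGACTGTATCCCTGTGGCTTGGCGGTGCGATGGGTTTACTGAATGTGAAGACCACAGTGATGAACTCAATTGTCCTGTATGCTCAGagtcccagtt
DVL1: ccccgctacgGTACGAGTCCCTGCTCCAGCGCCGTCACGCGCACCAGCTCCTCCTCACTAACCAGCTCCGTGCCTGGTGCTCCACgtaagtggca
AXIN1: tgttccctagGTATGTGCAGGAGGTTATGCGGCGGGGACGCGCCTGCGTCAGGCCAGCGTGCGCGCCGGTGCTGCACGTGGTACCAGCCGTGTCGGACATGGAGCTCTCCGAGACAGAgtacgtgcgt
CSNK1A1: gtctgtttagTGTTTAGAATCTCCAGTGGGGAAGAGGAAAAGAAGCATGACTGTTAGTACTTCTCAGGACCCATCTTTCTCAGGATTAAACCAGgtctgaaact
GSK3B: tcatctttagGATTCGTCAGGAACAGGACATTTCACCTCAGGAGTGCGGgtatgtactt

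A further sequence is shown because GGAC, a core of the m6A consensus, was unusually dense in LRP5. GGAC was counted in the spliced sense sequence of the main listed form of each gene. LRP5-201 held 83 copies in 5177 bases, or 16.03 per kilobase, and only 0.0962% of the listed transcripts held more per kilobase, against a median of 3.98. The window of 150 bases with the most copies lies in exon 6 of 23 of LRP5-201, in its coding part (GRCh37 chr11:68153788-68153937, plus strand), and holds 6, in capitals here.
LRP5: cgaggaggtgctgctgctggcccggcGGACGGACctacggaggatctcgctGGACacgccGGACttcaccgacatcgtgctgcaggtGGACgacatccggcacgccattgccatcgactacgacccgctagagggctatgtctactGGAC
The other members ranged lower. DVL1-201 held 9.08 copies per kilobase, AXIN1-202 held 7.22, CTNNB1-202 held 7.04 and GSK3A-202 held 4.82. GSK3B-201 at 3.10, TCF7L2-223 at 2.85 and APC-201 at 2.34 were under the median. LRP6-201 and CSNK1A1-202 were left out of this account because their ends differ between the deposited positions and the reference. GGAC occurred in 97.1% of the listed transcripts that matched the reference, so its presence does not set any gene apart, and methylation was not measured in these files.

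The 10 genes spanned a wide range of levels in HCCLM3 cells, and none was called between the groups. CTNNB1 was the most abundant, with a mean of 60.2 FPKM over the 4 libraries, followed by CSNK1A1 at 33.8, GSK3B at 26.9, DVL1 at 20.9, GSK3A at 13.6, AXIN1 at 10.6, LRP5 at 9.38, LRP6 at 6.79, TCF7L2 at 3.92 and APC at 3.74. The ranges of neighbours in this order overlapped between GSK3B and DVL1, between AXIN1 and LRP5 and between TCF7L2 and APC. AXIN1 was above LRP5 in 4 of 4 libraries all the same, whereas TCF7L2 was above APC in 2 of 4. The effector was thus present at many times the RNA level of the scaffold APC: the ratio of CTNNB1 to APC was 13.7 and 16.9 in the shCtrl libraries and 16.6 and 17.7 in the shKIAA1429 libraries.

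**Figure D1:**
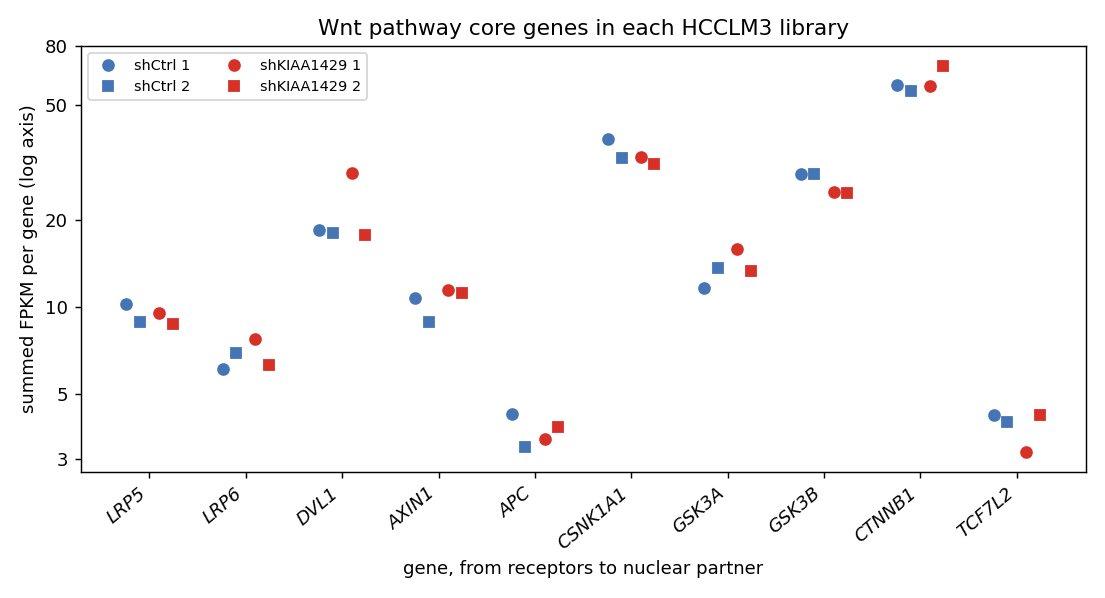
Summed FPKM per gene (log axis) of the 10 Wnt core genes, ordered from receptors to nuclear partner, with 1 point for each of the 4 libraries. In AXIN1 both shKIAA1429 points lie above both shCtrl points and in GSK3B both lie below, while the groups overlap in the other genes.

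Of the 10 genes, 0 passed the call rule, as did 0% of all genes tested. At an unadjusted p-value under 0.05, 0 of the 10 genes were higher or lower, against 2.98% of all genes tested that were higher and 2.65% that were lower. Both shKIAA1429 values lay above both shCtrl values in 1 of the 10 (AXIN1), against 16.9% of all genes, and below them in 1 (GSK3B), against 16.7%. The differences ran from -0.20 to 0.30, with 5 genes higher and 5 lower and a median of 0.03 beside -0.01 for all genes tested. The 95% interval of each of the 10 differences lay inside -1 and 1, so a change of 2-fold on this scale was outside the interval for every member, and each interval included 0.

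**Figure D2:**
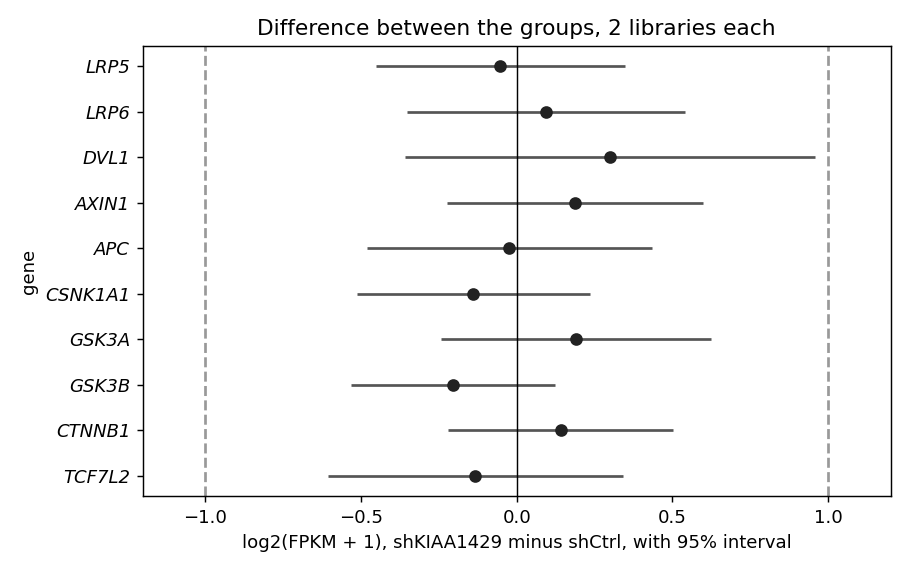
Difference in log2(FPKM + 1) between shKIAA1429 and shCtrl (points) with its 95% interval from limma (lines) for the 10 genes, 2 libraries in each group; dashed lines mark the fold threshold of -1 and 1. Every interval includes 0 and stays inside the dashed lines, and the widest is that of DVL1.

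The receptors LRP5 and LRP6, single-pass proteins that bind Wnt together with Frizzled, differed little between the groups. LRP5 (chr11:68080077-68216743, plus strand) measured 10.3 and 8.89 FPKM in shCtrl and 9.58 and 8.79 in shKIAA1429, a log2 difference of -0.05 (SE 0.15, limma adjusted p = 0.999). LRP6 (chr12:12268959-12419946, minus strand) measured 6.10 and 6.95 FPKM in shCtrl and 7.79 and 6.31 in shKIAA1429, a difference of 0.09 (SE 0.17, adjusted p = 0.993). The groups overlapped in both genes. The ratio of LRP5 to LRP6 was 1.68 and 1.28 in shCtrl and 1.23 and 1.39 in shKIAA1429, again with overlap.

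LRP5 was carried by 1 coding form. LRP5-201 was at 9.13 and 8.70 FPKM in shCtrl and 8.12 and 8.08 in shKIAA1429, so both knockdown values were lower, with a difference of -0.12 (SE 0.16, adjusted p = 0.993) that the test did not call. The short processed transcript LRP5-204 made up the rest, between 2.1% and 15.2% of the gene, and its values of 1.13 and 0.187 FPKM in shCtrl and 1.46 and 0.714 in shKIAA1429 overlapped. It is this non-coding form that made the sums of LRP5 overlap.

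LRP6 was split between 3 forms. LRP6-201, the full form with the 45 residues, was at 4.23 and 3.46 FPKM in shCtrl and 3.18 and 3.57 in shKIAA1429. LRP6-206, which lacks them, was listed at 0 in shCtrl replicate 1 and was at 1.40 FPKM in shCtrl replicate 2 and at 2.75 and 1.80 in shKIAA1429. The difference for LRP6-206 was 1.06 (SE 0.52, adjusted p = 0.944), and it was 0.43 without shCtrl replicate 1. The short LRP6-202 had 1.88 and 2.09 FPKM in shCtrl and 1.87 and 0.938 in shKIAA1429. Of the 2 forms that differ by the stretch, the form with it took 100% and 71.1% in shCtrl and 53.7% and 66.4% in shKIAA1429. The knockdown values were both lower, but shCtrl replicate 1, with its 0, was farther from the other control than that control was from shKIAA1429 replicate 2.

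DVL1 (chr1:1270656-1284730, minus strand), the Dishevelled protein gene that passes the signal from the receptors, measured 18.6 and 18.1 FPKM in shCtrl and 29.1 and 17.8 in shKIAA1429. Only shKIAA1429 replicate 1 was high, and the difference of 0.30 (SE 0.25, adjusted p = 0.973) rested on it: it was 0.64 without shKIAA1429 replicate 2 and -0.04 without shKIAA1429 replicate 1. Without shKIAA1429 replicate 2, DVL1 was the 1 member with an unadjusted p-value under 0.05 (adjusted p = 0.714). DVL1-201, with the 25 residues, was at 12.3 and 12.7 FPKM in shCtrl and 19.0 and 10.5 in shKIAA1429. DVL1-202, without them, was at 4.57 and 3.88 FPKM in shCtrl and 7.07 and 4.93 in shKIAA1429. DVL1-204 had 1.73 and 1.5 FPKM in shCtrl and 3.0 and 2.38 in shKIAA1429. Both minor forms were above the controls in both knockdown libraries, with differences of 0.41 (SE 0.24, adjusted p = 0.973) and 0.49 (SE 0.21, adjusted p = 0.899). Of DVL1-201 and DVL1-202 together, the form with the stretch took 72.9% and 76.6% in shCtrl and 72.9% and 68.0% in shKIAA1429. DVL1-204 was not found in the reference and was left out of this share.

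AXIN1 (chr16:337440-402673, minus strand), the scaffold whose amount is thought to limit the destruction complex, measured 10.8 and 8.89 FPKM in shCtrl and 11.4 and 11.2 in shKIAA1429. Both knockdown values were above both controls, but the controls differed from each other by more than shCtrl replicate 1 differed from the knockdown libraries, and the difference was 0.19 (SE 0.16, adjusted p = 0.973). The shorter AXIN1-202 carried 76.4% to 84.1% of the gene, at 8.72 and 7.13 FPKM in shCtrl and 9.62 and 8.54 in shKIAA1429. AXIN1-201, with the 36 residues of exon 9, was at 1.5 and 1.42 FPKM in shCtrl and 1.10 and 1.87 in shKIAA1429. Its share of these forms was 14.7% and 16.6% in shCtrl and 10.3% and 18.0% in shKIAA1429, so the knockdown values lay on either side of the controls.

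APC (chr5:112043195-112181936, plus strand), the large scaffold that binds β-catenin and axin, was the least abundant member, at 4.28 and 3.30 FPKM in shCtrl and 3.52 and 3.86 in shKIAA1429, a difference of -0.02 (SE 0.18, adjusted p = 0.999). Of its 4 listed forms, APC-201 and APC-207 followed the replicate number rather than the group. APC-201 measured 0.103 and 2.44 FPKM in shCtrl and 0.198 and 2.01 in shKIAA1429. APC-207 was at 2.0 FPKM and listed at 0 in shCtrl, and at 2.69 FPKM and listed at 0 in shKIAA1429. In both groups, then, APC-207 was present in replicate 1 and listed at 0 in replicate 2, and APC-201 was low in replicate 1. In the reference the 2 forms share the same coding part of 8529 bases: APC-207 has 108 extra bases before it (chr5:112074050-112074157), and APC-201 runs 183 bases farther at its 3′ end. Their sum was 2.1 and 2.44 FPKM in shCtrl and 2.89 and 2.01 in shKIAA1429. APC-210 was at 1.40 and 0.186 FPKM in shCtrl and 0.306 and 1.44 in shKIAA1429, which is high in 1 library of each group.

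APC is known to have an upstream and a downstream promoter, and the listed forms allow both to be seen. APC-209 starts at the upstream one, right after the window chr5:112042945-112043194 of GRCh37. APC-201 starts 3 bases after the downstream RefSeq start site, whose window is chr5:112073332-112073581 of GRCh37. The 250 bases before each start are from RefSeq (GRCh38.p14 chr5:112707248-112707497 and chr5:112737635-112737884, plus strand) and each matched 1 place on chromosome 5 of GRCh37, with the dinucleotide CG in capitals.
upstream: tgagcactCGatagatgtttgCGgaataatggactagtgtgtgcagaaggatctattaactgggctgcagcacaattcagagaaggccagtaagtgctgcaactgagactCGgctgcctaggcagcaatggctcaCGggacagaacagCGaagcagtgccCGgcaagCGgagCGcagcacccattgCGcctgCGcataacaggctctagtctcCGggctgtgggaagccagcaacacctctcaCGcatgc
downstream: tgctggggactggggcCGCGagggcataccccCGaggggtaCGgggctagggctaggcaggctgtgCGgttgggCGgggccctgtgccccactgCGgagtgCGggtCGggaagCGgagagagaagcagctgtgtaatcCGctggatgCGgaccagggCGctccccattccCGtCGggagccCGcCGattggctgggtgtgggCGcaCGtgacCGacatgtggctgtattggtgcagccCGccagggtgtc
The downstream window holds 21 CG and the upstream one 12, and 30.2% and 48.5% of the 35116 promoters in the table hold at least as many. The upstream form APC-209 had 0.782 and 0.674 FPKM in shCtrl and 0.320 and 0.412 in shKIAA1429, or 18.3% and 20.4% of the gene against 9.09% and 10.7%. The groups did not overlap, but APC-209 was under 1 FPKM in every library and so was not tested. The deposited APC-209 also ends 78738 genomic bases before the end of its reference form, so its share is that of a short form.

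CSNK1A1 (chr5:148871760-148931115, minus strand) encodes casein kinase 1α, which primes β-catenin for the GSK3 kinases. Its values were 38.3 and 32.7 FPKM in shCtrl and 32.9 and 31.2 in shKIAA1429, and the difference of -0.14 (SE 0.14, adjusted p = 0.986) was no larger than its error. With 9 listed forms it was the most divided member. CSNK1A1-202, which lacks the 28-residue insert, led at 17.8 and 13.6 FPKM in shCtrl and 14.8 and 13.1 in shKIAA1429. CSNK1A1-201, which holds it, measured 7.35 and 6.75 FPKM in shCtrl and 5.98 and 6.12 in shKIAA1429. CSNK1A1-205, also with the insert, was at 3.42 and 2.68 FPKM in shCtrl and 1.90 and 2.56 in shKIAA1429. CSNK1A1-207, the third such form, was at 0.940 and 1.04 FPKM in shCtrl and 2.34 and 1.28 in shKIAA1429. Forms with and without the insert kept a close mixture: the share with it was 37% and 40.7% in shCtrl and 38.5% and 38.7% in shKIAA1429. Of the other named forms, CSNK1A1-206 ran from 2.12 to 2.95 FPKM, CSNK1A1-204 from 1.54 to 2.64 and CSNK1A1-203 from 0.978 to 2.16. The reference annotates a non-coding gene that shares 4194 exonic bases with CSNK1A1 on the same strand, which had no listed transcript.

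**Figure D3:**
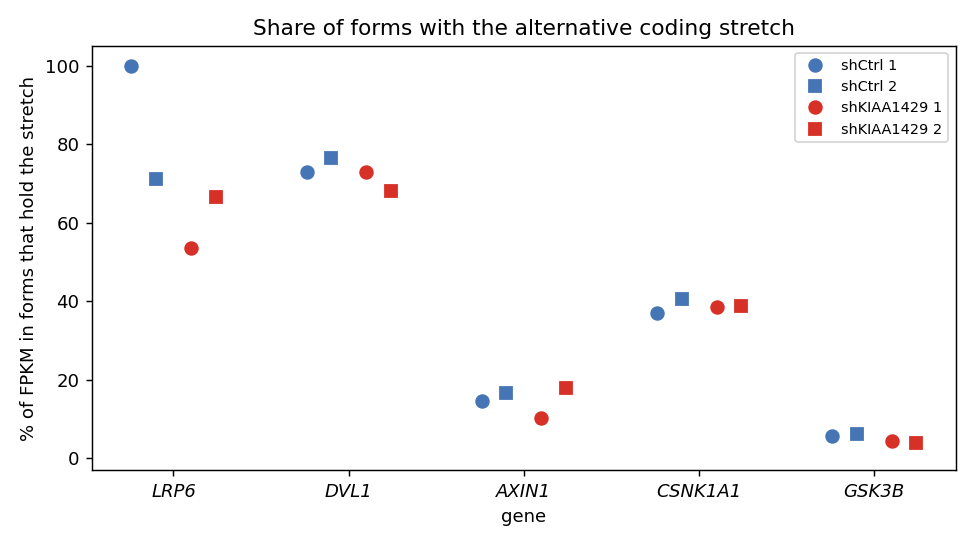
Share (%) of FPKM in forms that hold the alternative coding stretch, for the 5 genes whose stretches are printed above, with 1 point per library. The share is of the listed forms that span the stretch and were found in the reference. CSNK1A1 lies between 37% and 40.7% in all 4 libraries, LRP6 spreads from 53.7% to 100%, and in GSK3B both shKIAA1429 points lie below both shCtrl points.

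The kinases GSK3A and GSK3B, close relatives that both phosphorylate β-catenin, had differences of opposite sign, and neither passed the test. GSK3A (chr19:42734338-42746745, minus strand) measured 11.7 and 13.7 FPKM in shCtrl and 15.9 and 13.3 in shKIAA1429, a difference of 0.19 (SE 0.17, adjusted p = 0.977), with overlap. GSK3B (chr3:119540170-119813264, minus strand) measured 29.0 and 28.8 FPKM in shCtrl and 25.1 and 24.8 in shKIAA1429. Within each group the GSK3B values were almost equal and the knockdown values were both lower. The fitted difference of -0.20 (SE 0.13, unadjusted p = 0.168, adjusted p = 0.954 in limma) did not pass. The test combines a gene's own spread with the spread of all genes of a like level. Leaving out each library in turn gave -0.20 to -0.21 for GSK3B, the narrowest such range of the 10 genes. The ratio of GSK3B to GSK3A was 2.48 and 2.11 in shCtrl and 1.58 and 1.86 in shKIAA1429, which do not overlap. This ratio was not tested, and how often ratios of other genes do not overlap was not counted.

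GSK3A was carried by GSK3A-202, at 10.1 and 12.1 FPKM in shCtrl and 12.7 and 12.0 in shKIAA1429. In the reference this leading form has the shorter coding part, 1203 bases against 1449 in GSK3A-201. GSK3A-201 was at 1.62 and 1.61 FPKM in shCtrl and 3.13 and 1.34 in shKIAA1429, high in shKIAA1429 replicate 1 alone. GSK3A shares exonic bases with listed genes in the reference, 197 with ZNF526 on the opposite strand and 479 with an uncharacterised gene on its own strand, so reads there could have been assigned to either. GSK3B-201 carried most of GSK3B, at 25.4 and 24.6 FPKM in shCtrl and 21.7 and 21.2 in shKIAA1429, a difference of -0.21 (SE 0.13, adjusted p = 0.973). GSK3B-202, with the 13-residue insert, was at 1.57 and 1.63 FPKM in shCtrl and 1.02 and 0.875 in shKIAA1429, a difference of -0.42 (SE 0.19, adjusted p = 0.917). Its share of both forms was 5.82% and 6.21% in shCtrl and 4.49% and 3.96% in shKIAA1429. The processed GSK3B-203 overlapped between the groups, from 1.96 to 2.74 FPKM.

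CTNNB1 (chr3:41240925-41281944, plus strand), which encodes β-catenin, measured 58.6 and 55.8 FPKM in shCtrl and 58.2 and 68.4 in shKIAA1429. The difference was 0.14 (SE 0.14, adjusted p = 0.983), and only shKIAA1429 replicate 2 was above the controls. The ratio of CTNNB1 to GSK3B was 2.02 and 1.93 in shCtrl and 2.32 and 2.76 in shKIAA1429, and that of CTNNB1 to TCF7L2 was 13.8 and 13.9 in shCtrl and 18.4 and 16.1 in shKIAA1429. Both ratios were higher in both knockdown libraries than in both controls, and they were not tested. CTNNB1 and TCF7L2 each overlapped between the groups on their own, and the ratio to GSK3B holds the lower GSK3B values given above. How often ratios of any 2 genes do not overlap was not counted. Among single genes, 16.9% lay above and 16.7% below.

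The make-up of CTNNB1 differed more than its level. CTNNB1-202 was at 46.6 and 43.0 FPKM in shCtrl and 42.8 and 18.9 in shKIAA1429, or 79.6% and 77.1% of the gene against 73.5% and 27.6%. CTNNB1-203 was at 5.13 and 6.20 FPKM in shCtrl and 4.48 and 30.8 in shKIAA1429, or 8.75% and 11.1% against 7.70% and 45.0%. CTNNB1-201 was at 5.17 and 5.05 FPKM in shCtrl and 9.56 and 16.9 in shKIAA1429, or 8.82% and 9.06% against 16.4% and 24.8%. It was shKIAA1429 replicate 2 that stood apart: there CTNNB1-203 took the place of CTNNB1-202 as the leading form, while shKIAA1429 replicate 1 resembled the controls in both. The sum of the 3 forms stayed at 56.9 and 54.2 FPKM in shCtrl and 56.9 and 66.6 in shKIAA1429.

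In the reference these 3 forms of CTNNB1 share the same coding part of 2343 bases, so they encode the same protein. They differ on both sides of it. Before it, the reference gives CTNNB1-202 a stretch of 71 bases that CTNNB1-201 lacks, and CTNNB1-203 a further 45 that CTNNB1-202 lacks. The deposited starts differ. CTNNB1-201 starts at chr3:41240930, inside that stretch of 71 bases (chr3:41240925-41240995), and CTNNB1-203 starts at chr3:41240996, after it. The differences before the coding part are thus those of the reference, not of the deposited positions. After the coding part, CTNNB1-201 keeps 464 bases (chr3:41280846-41281309) that CTNNB1-202 lacks, and CTNNB1-203 keeps only the last 159 of them (chr3:41281151-41281309). None of these bases holds a GGAC. Forms that keep at least the last 159 bases made up 17.6% and 20.2% of the gene in shCtrl and 24.1% and 69.7% in shKIAA1429. The difference for CTNNB1-201 was 1.17 (SE 0.32, unadjusted p = 0.023, adjusted p = 0.610 in limma), and it was 0.79 without shKIAA1429 replicate 2 and 1.55 without shKIAA1429 replicate 1. For CTNNB1-202 it was -0.63 (SE 0.43, adjusted p = 0.973), but -0.06 without shKIAA1429 replicate 2. For CTNNB1-203 it was 0.99 (SE 0.94, adjusted p = 0.980).

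**Figure D4:**
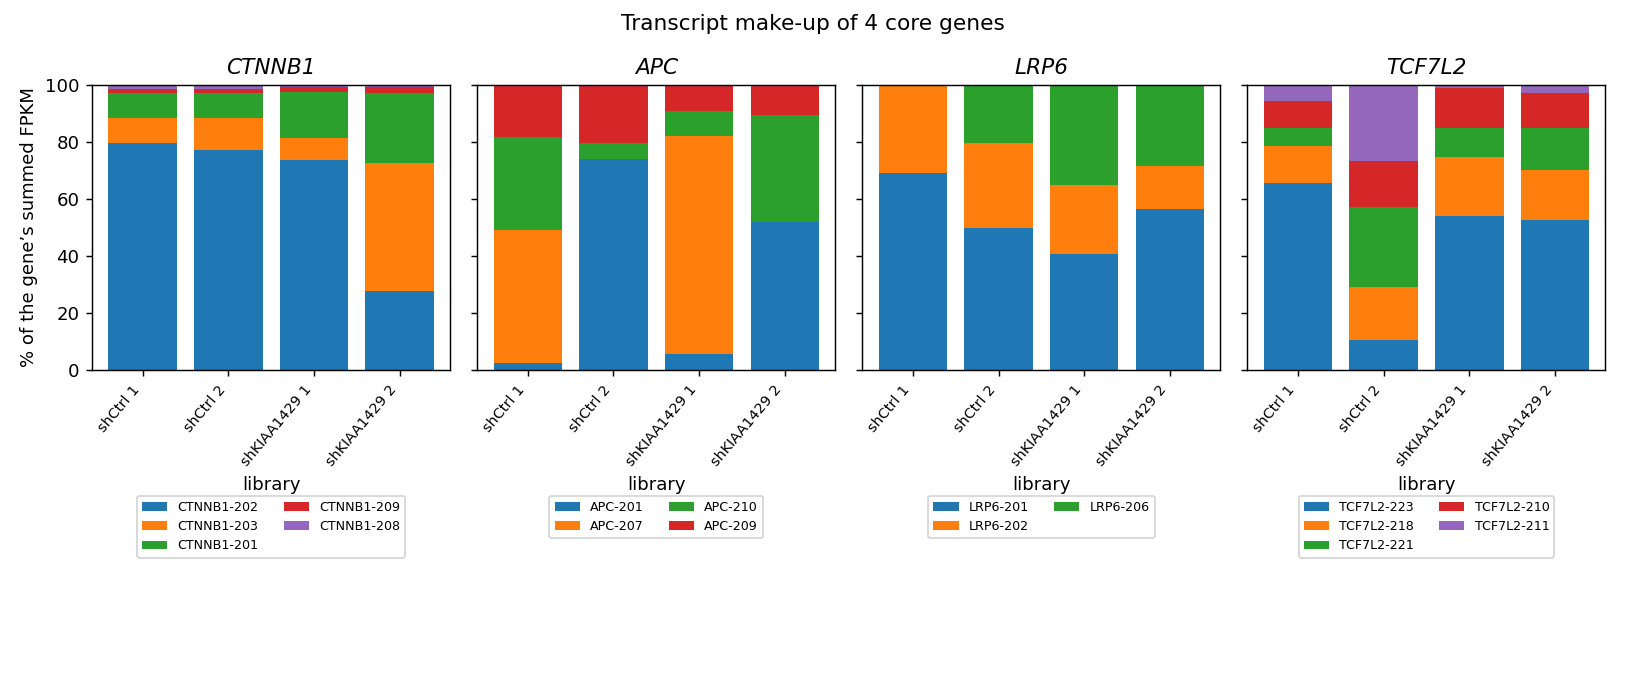
Share (%) of each listed form in its gene's summed FPKM, as stacked bars for the 4 libraries, in CTNNB1, APC, LRP6 and TCF7L2. CTNNB1-202 leads in 3 libraries and falls to 27.6% in shKIAA1429 replicate 2, APC-207 is present in both first replicates and at 0 in both second replicates, LRP6-206 is at 0 in shCtrl replicate 1, and TCF7L2-223 is lowest in shCtrl replicate 2.

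TCF7L2 (chr10:114710009-114927437, plus strand), the TCF factor through which β-catenin acts on many genes of the liver and gut, measured 4.24 and 4.02 FPKM in shCtrl and 3.16 and 4.26 in shKIAA1429, a difference of -0.13 (SE 0.18, adjusted p = 0.987), with overlap. TCF7L2-223 was at 2.77 and 0.414 FPKM in shCtrl and 1.71 and 2.24 in shKIAA1429, so that shCtrl replicate 2 was low. That library was instead the highest for TCF7L2-211, at 1.07 FPKM beside 0.240 in shCtrl replicate 1 and 0.032 and 0.126 in shKIAA1429, and for TCF7L2-221, at 1.14 FPKM beside 0.272, 0.321 and 0.623. TCF7L2-218 and TCF7L2-210 stayed under 1 FPKM in every library, from 0.559 to 0.756 and from 0.394 to 0.642.

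Over all members, 30 of the 39 transcripts passed the filter and 0 of them were called, as were 0% of all transcripts tested. At an unadjusted p-value under 0.05, 1 was higher (CTNNB1-201), against 3.1% of all transcripts, and 0 were lower, against 3.18%. Both knockdown values lay above both controls in 5 of the 30, against 16.7% of all transcripts tested. They lay below both controls in 9 of the 30, against 16.8%. The 9 lower forms were CSNK1A1-201, CSNK1A1-203, CSNK1A1-205, CSNK1A1-206, GSK3B-201, GSK3B-202, LRP5-201, LRP6-202 and CTNNB1-202, and forms of 1 gene share reads and are not independent. Of the 39 transcripts, 2 (LRP6-206 and APC-207) were listed at 0 in some library while at 1 FPKM or more in another, a pattern seen in 6.23% of all listed transcripts. The 5 transcripts too low to be described singly (AXIN1-205, CSNK1A1-209, CSNK1A1-210, CTNNB1-208 and CTNNB1-209) ran from 0.349 to 1.47 FPKM. How the reads were divided between forms is not given in the sources used here, and its part in these mixtures was not tested.

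The rest of the pathway was read from 8 lists of 133 genes besides the members, of which 83 were listed and 80 tested. No gene of these lists was called, and 1 of the 80 was higher at an unadjusted p-value under 0.05 in limma (CD44). Both knockdown values lay above both controls in 18 and below in 9, and 48 genes were higher and 32 lower, with a median difference of 0.03. These counts stand beside the 16.9% and 16.7% of all genes given above.

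Outside the cell, HCCLM3 cells held much RNA of a few ligands, receptors and inhibitors. WNT5B, a ligand known mostly for signalling without β-catenin, was at 120 and 104 FPKM in shCtrl and 107 and 81.0 in shKIAA1429. The receptor FZD2 was at 140 and 134 FPKM in shCtrl and 142 and 113 in shKIAA1429. The inhibitor DKK1, which binds LRP5 and LRP6, was at 209 and 216 FPKM in shCtrl and 196 and 190 in shKIAA1429, and the Wnt-binding SFRP1 was at 135 and 123 in shCtrl and 116 and 111 in shKIAA1429. Both inhibitors, like 16.7% of all genes tested, were below the controls in both knockdown libraries. Their differences were -0.14 (SE 0.10, adjusted p = 0.969) and -0.18 (SE 0.12, adjusted p = 0.954). All 4 of these genes exceeded LRP5 and LRP6 in level per length in every library.

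Of 25 genes for ligands and their secretion, 8 were listed. WNT3, a ligand of the β-catenin branch, was at 3.09 and 2.55 FPKM in shCtrl and 3.81 and 4.45 in shKIAA1429, a difference of 0.42 (SE 0.17, adjusted p = 0.894), and WNT7B ran from 11.9 to 20.5 FPKM with overlap. Of 16 other receptors 10 were listed, and FZD6 (difference 0.41, SE 0.53) and ROR1 (difference -0.40, SE 0.26) were the farthest from 0 among those with a mean of at least 2 FPKM, both with overlap. Of 19 inhibitors 7 were listed. Both knockdown values were below both controls in 4 of the 7 and above in 0, beside 16.7% and 16.9% of all genes tested, and 0 were called. The summed FPKM of the listed inhibitors was 396 and 384 in shCtrl and 365 and 344 in shKIAA1429, and most of it came from DKK1 and SFRP1.

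Inside the cell, the 21 tested genes among the other regulators of the destruction complex and cytoplasm had a median difference of 0.02. They include PPP2R1A, a phosphatase scaffold, with a difference of 0.10 (SE 0.13), CUL1, a ubiquitin ligase scaffold, with 0.22 (SE 0.19), and the kinase gene CSNK1G3 with 0.18 (SE 0.20), and the groups overlapped in all 3. Of the 22 nuclear factors tested, 17 were higher and 5 lower, with a median of 0.07, and both knockdown values were above both controls in 8, beside 16.9% of all genes tested; 0 were called and 0 had an unadjusted p-value under 0.05 in limma. TLE3, a co-repressor, was at 1.85 and 3.41 FPKM in shCtrl and 4.31 and 3.99 in shKIAA1429, a difference of 0.54 (SE 0.25, adjusted p = 0.917). The coactivator gene CREBBP was at 15.96 and 16.7 FPKM in shCtrl and 22.9 and 18.7 in shKIAA1429, a difference of 0.33 (SE 0.16, adjusted p = 0.924). BCL9L, which links β-catenin to the transcription machinery, had 65.6 and 65.1 FPKM in shCtrl and 75.5 and 65.9 in shKIAA1429.

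At cell junctions β-catenin binds cadherins and α-catenin. The p120 catenin gene CTNND1 was at 25.3 and 29.8 FPKM in shCtrl and 12.3 and 21.8 in shKIAA1429, and shKIAA1429 replicate 1 was the lowest. Its difference was the farthest from 0 in the 8 Wnt lists, at -0.71 (SE 0.29, limma adjusted p = 0.897). The CTNND1 difference was -0.32 without that library and reached -1.10 without shKIAA1429 replicate 2. CTNNA1 (difference 0.40, SE 0.31) and VCL (0.07, SE 0.18) overlapped between the groups. CDH1, the epithelial cadherin, had no listed transcript.

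Of 20 general target genes 10 were listed and 9 tested, and DKK1, given above as an inhibitor, had the highest mean. In the 9 tested, both knockdown values were above both controls in 3 and below in 1. These patterns were shown by 16.9% and 16.7% of all genes tested. AXIN2, LGR5, NKD1, RNF43, NOTUM and TCF7, which β-catenin is known to raise in many tissues, had no listed transcript. Since listing needed about 0.504 FPKM in some library, no value is given for them. CD44 was at 159 and 177 FPKM in shCtrl and 204 and 214 in shKIAA1429, a difference of 0.31 (SE 0.11, unadjusted p = 0.044, adjusted p = 0.884 in limma). MYC was at 12.7 and 23.7 FPKM in shCtrl and 32.7 and 20.03 in shKIAA1429, a difference of 0.53 (SE 0.37, adjusted p = 0.960), with overlap. Of 10 liver targets 3 were listed. GLUL, the glutamine synthetase gene of liver cells around the central vein, was at 14.1 and 10.4 FPKM in shCtrl and 18.0 and 15.9 in shKIAA1429, a difference of 0.45 (SE 0.19, adjusted p = 0.901). ZNRF3, which removes Frizzled from the surface, ran from 1.75 to 2.28 FPKM with overlap.

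**Figure D5:**
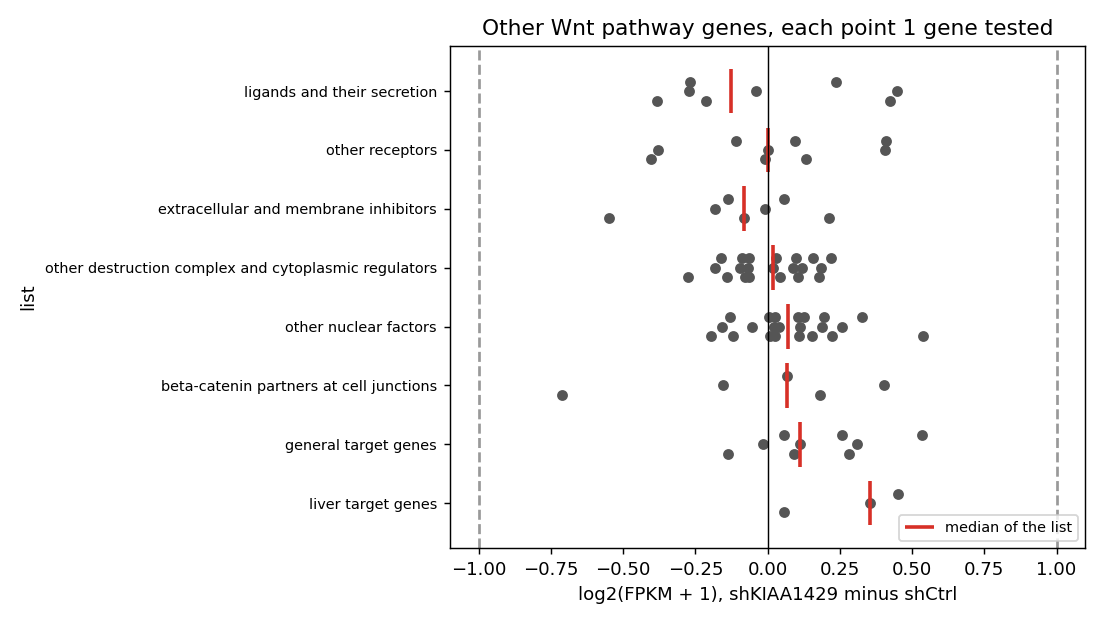
Difference in log2(FPKM + 1) between shKIAA1429 and shCtrl for each gene tested in the 8 lists of other Wnt pathway genes (points), with the median of each list (red line); dashed lines mark -1 and 1. No gene lies beyond the dashed lines, and CTNND1 at -0.71 is the farthest from 0.

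Markers of the cells were read alongside. Of 14 hepatocyte and hepatoma markers, 3 were listed: SERPINA1 at 4.42 and 3.34 FPKM in shCtrl and 5.63 and 4.70 in shKIAA1429, FOXA2 under 1 in every library, and CPS1 from 1.05 to 3.24. The defining markers ALB, AFP, APOA1 and HNF4A had no listed transcript, so most of the defining markers of liver cells were absent from the listed transcripts. The 3 listed markers, of which FOXA2 was too low to be tested, were above both controls in both knockdown libraries, as were 16.9% of all genes tested, and their summed FPKM was 5.69 and 5.53 in shCtrl and 8.72 and 8.67 in shKIAA1429. Of 5 epithelial markers 3 were listed, and EPCAM and CDH1 had no listed transcript. The keratin gene KRT8 was at 1176 and 1019 FPKM in shCtrl and 1163 and 1134 in shKIAA1429, with overlap. KRT18 also overlapped, from 971 to 1073 FPKM, with a difference of 0.01 (SE 0.10). The mesenchymal gene VIM was at 962 and 1033 FPKM in shCtrl and 1227 and 1196 in shKIAA1429, a difference of 0.28 (SE 0.09, adjusted p = 0.806). KRT19 was at 364 and 350 FPKM in shCtrl and 461 and 458 in shKIAA1429, a difference of 0.36 (SE 0.09, adjusted p = 0.709). The 3 mesenchymal markers VIM, CDH2 and FN1 were each above both controls in both knockdown libraries, a pattern shown by 16.9% of all genes tested, and their summed FPKM was 1100 and 1162 in shCtrl and 1453 and 1415 in shKIAA1429. FN1 was at 128 and 119 FPKM in shCtrl and 215 and 206 in shKIAA1429. Its difference was 0.76 (SE 0.11, unadjusted p = 0.0011, adjusted p = 0.366 in limma), and it was not called. At an unadjusted p-value under 0.05 in limma, 2 of the 3 mesenchymal markers tested were higher. So were 1 of 3 epithelial and 1 of 2 hepatocyte markers tested, beside 2.98% of all genes, and 0 were lower. FN1, CPS1 and KRT18 were named after their values were seen. In bulk RNA, fewer cells of a kind and less RNA per cell cannot be told apart, and the part of these markers in the Wnt values was not tested.

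Of 6 markers of cells that a culture of this line should lack, PTPRC, PECAM1 and VWF had no listed transcript, while CD68 was at 44.1 to 52.3 FPKM and COL1A1 at 3.54 to 6.76, both with overlapping groups, and DCN was at 1.06 FPKM in shCtrl replicate 1 and under 0.3 in the other libraries. The summed level of the listed markers was 56.9 and 50.7 FPKM in shCtrl and 56.5 and 51.1 in shKIAA1429.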

How the data were processed

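The deposited files hold FPKM per annotated transcript, made by the authors with a tool that is not given in the sources used here; the submitters' processing notes name Bowtie2 2.1.0. Positions are of GRCh37 with GENCODE identifiers. Of the 39 member transcripts, 37 were found by identifier in GENCODE 44 as lifted to GRCh37; 17 of these had the same start and end. Exon numbers, coding parts and overlaps are from that annotation. Sequences were read from the GRCh37 genome, and the APC promoters from RefSeq (GRCh38.p14).

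FPKM were summed per gene. Log2(FPKM + 1) was modelled by group with limma 3.58.1 (R 4.3.3; two-sided, eBayes with trend), for genes or transcripts with at least 1 FPKM in at least 2 samples, which understates changes of low genes. The study's count test was not run because the files hold no counts. The script was tested on simulated data with changes much larger than those of the members. That test does not show which smaller differences could be detected. Library kit and methods do not mark strand, so antisense and overlapping genes are uncertain. In 2 files some gene symbols had become dates, none of them members; they were recovered by identifier.

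All 10 genes were described, and forms with a mean of at least 1 FPKM or at least 10% of their gene in a library. In each list the most abundant gene and the 2 with the largest absolute difference at a mean of at least 2 FPKM were named, and of markers those with the highest and lowest level. The members and lists were chosen with earlier results of these data known. Replicate numbers come from the titles. Python 3.11.15 with matplotlib 3.10.9 made the figures. MeRIP-seq and RIP-seq data were not used here. Depth per sample is unknown, so no interval that needs it is given.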

Additional observations from a re-analysis of the deposited data

How the results depend on the processing

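The counts of called core genes, core transcripts and listed genes stayed at 0 under FPKM rescaled to an equal sum per library, upper quartile scaling, no filter, a filter on every sample, a pseudocount of 0.1, a robust variance estimate, the adjusted p-value alone as the threshold, the replicate block and each library left out, and that of core genes also with protein-coding transcripts only. Each of the 10 core genes kept its direction under equal-sum rescaling, upper quartile scaling, a pseudocount of 0.1 and protein-coding transcripts only. The filters, the robust variance estimate and the replicate block leave the fitted difference itself unchanged, so they could not alter a direction. Directions did change when a library was left out. Then 5 genes changed sign, with ranges of -0.17 to 0.12 for APC, -0.040 to 0.64 for DVL1, -0.15 to 0.042 for LRP5, -0.039 to 0.23 for LRP6 and -0.30 to 0.038 for TCF7L2. Among listed genes the same held for FZD2 (-0.27 to 0.051), FZD6 (-0.34 to 1.16), VCL (-0.13 to 0.26), WNT7B (-0.57 to 0.030) and ZNRF3 (-0.049 to 0.17). Under the filter on every sample, the core transcripts GSK3B-202, CSNK1A1-203, CSNK1A1-207, CSNK1A1-210, LRP5-204, LRP6-202 and LRP6-206 were not tested. Neither were APC-201, APC-207, APC-210 and TCF7L2-223, nor FZD6 among the named genes of the Wnt lists. VIRMA ranged from -0.80 to -0.26. The other 5 core genes kept their sign, with ranges of 0.06 to 0.31 for AXIN1, -0.25 to -0.03 for CSNK1A1, 0.03 to 0.26 for CTNNB1, 0.07 to 0.31 for GSK3A and -0.21 to -0.20 for GSK3B. AXIN1 and GSK3B could not have done otherwise, because leaving out 1 library cannot reverse groups that do not overlap. The same holds for the 14 tested transcripts whose groups did not overlap, so their unchanged sign carries no information. Rescaling moved the median of all genes to at most -0.06. Replicate numbers are shared between the groups, and deviations of same-numbered libraries correlated at 0.32 across genes, but with 2 pairs the numbers are not shown to pair samples. With the replicate number as a block, 0 core genes and 0 genes in all were called, and the smallest limma adjusted p-value among core genes was 0.492. The VIRMA difference of -0.53 cannot change under that block. Without shCtrl replicate 1, 1 gene of the whole table was called and none of the core. Unknown depth and 2 libraries per group limit what differences could be detected.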
